A study of Mus musculus with 6 samples.

Results

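The genes described here are 35 genes of sterol and fatty acid synthesis, chosen by symbol as enzymes of the pathways and their regulators. All 35 had a row among the 15443 gene symbols of the table. RNA came from cultured marrow of C57BL/6J mice (an inbred strain, wild type) kept for 3 days with FLT3LG at 50 ng/ml, the cytokine that drives dendritic cell growth from marrow progenitors. The 3 control libraries (replicates 1, 2 and 4) had no further addition. The 3 midkine libraries (replicates 3, 4 and 5) had recombinant human midkine, a secreted heparin-binding growth factor, at 10 ng/ml throughout. The labels give no age or sex and do not say whether replicates were separate mice or cultures, so p-values describe the spread between these libraries, which may be technical. The cultures were unsorted mixtures, so fewer cells of a type and less RNA per cell cannot be told apart.

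Sterols and fatty acids are both built from acetyl-CoA in the cytosol. The mevalonate arm carries acetyl-CoA to squalene, and the sterol ring arm closes squalene into lanosterol and trims it to cholesterol. Carboxylation of acetyl-CoA and the fatty acid synthase give palmitate, which elongases and desaturases lengthen and unsaturate. Most genes of both routes are targets of SREBP transcription factors. Scap carries SREBP out of the endoplasmic reticulum for cleavage when sterols are low, and Insig proteins hold it back when sterols are high. In myeloid cells the oxysterol-sensing LXR receptors raise cholesterol export, and they also raise Srebf1 and genes of fatty acid synthesis.

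Libraries held 5985684 to 7233960 reads, of which the 35 genes took 0.145 to 0.187%. Midkine 5 stood apart: its score on the first principal component of all genes was 86.0, against −28.2 to 1.9 in the other 5 libraries, so fold changes are given with and without it. Marker lists for other cell types were summed per library. Conventional dendritic cell markers (11 of 11 in the table) summed to 11828 to 13886 (control) and 7119.8 to 12486 (midkine), and plasmacytoid dendritic cell markers (7 of 7) to 9772 to 10789 (control) and 7757 to 8460.5 (midkine). Monocyte and macrophage markers (10 of 10) summed to 41717 to 43569 (control) and 57882 to 96075 (midkine), neutrophil markers (9 of 9) to 123085 to 136838 (control) and 176015 to 187812 (midkine), and B cell markers (6 of 6) to 1013 to 1432 (control) and 1116 to 2152 (midkine). Markers of dividing cells (7 of 7) summed to 16719.7 to 17656 (control) and 8928 to 11700.0 (midkine). No marker of these lists was at 0 in any library. Taken singly, 7 conventional dendritic, 3 plasmacytoid dendritic and 3 dividing cell markers lay under the controls in every midkine library, and 0 above. Above the controls in every midkine library lay 7 monocyte and macrophage, 7 neutrophil and 2 B cell markers, and 0 lay under. Over all genes these shares were 15.3% (under) and 15.5% (above). The part of these shifts in the results below was not tested.

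With all 6 libraries, none of the 35 genes changed past the threshold. Genes of the mevalonate arm lay mostly lower in midkine 3 and 4 but not in midkine 5. Their median log2 distance from the average of the controls was −0.32 (midkine 3), −0.44 (midkine 4) and 0.06 (midkine 5). The controls themselves lay at 0.14 (control 1), −0.22 (control 2) and 0.08 (control 4). Fold changes are midkine minus control on the log2(normalized count + 1) scale, and the threshold is a Benjamini-Hochberg adjusted p under 0.05 over all 13543 genes tested (limma). At this threshold 0 of 35 members and 0 of 13543 genes passed (0.0%). The smallest adjusted p of a member was 0.186 for Scd1 with limma, 0.164 with edgeR and 0.0839 with DESeq2 (34 members given an adjusted p). edgeR and DESeq2 called 0.0738% and 5.92% of all genes and 0 members. An unadjusted p under 0.05 was reached by 5 members (14.3%, against 19.7% of all genes), with limma. Mvd, Sqle and Lss were lower (8.57%, against 9.3%) and Scd1 and Srebf1 higher (5.71%, against 10.4%). The same cut gave 5 members with edgeR and 3 with DESeq2. For these methods the share of all genes at this cut was not counted, so these counts have no background. The control and midkine values did not overlap for 10 members (28.6%, against 30.8%). Of these, 7 were lower (20%, against 15.3%) and 3 higher (8.57%, against 15.5%). Except among lower genes without overlap, each share lay under the background of all genes. Both midkine 3 and midkine 4 lay under every control for 16 members (45.7%, against 23.8%) and above every control for 4 (11.4%, against 23.8%). Group means below are given ± SD over 3 libraries. The median log2 fold change was −0.11 over the 35 members and −0.004 over all genes tested.

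**Figure D1:**
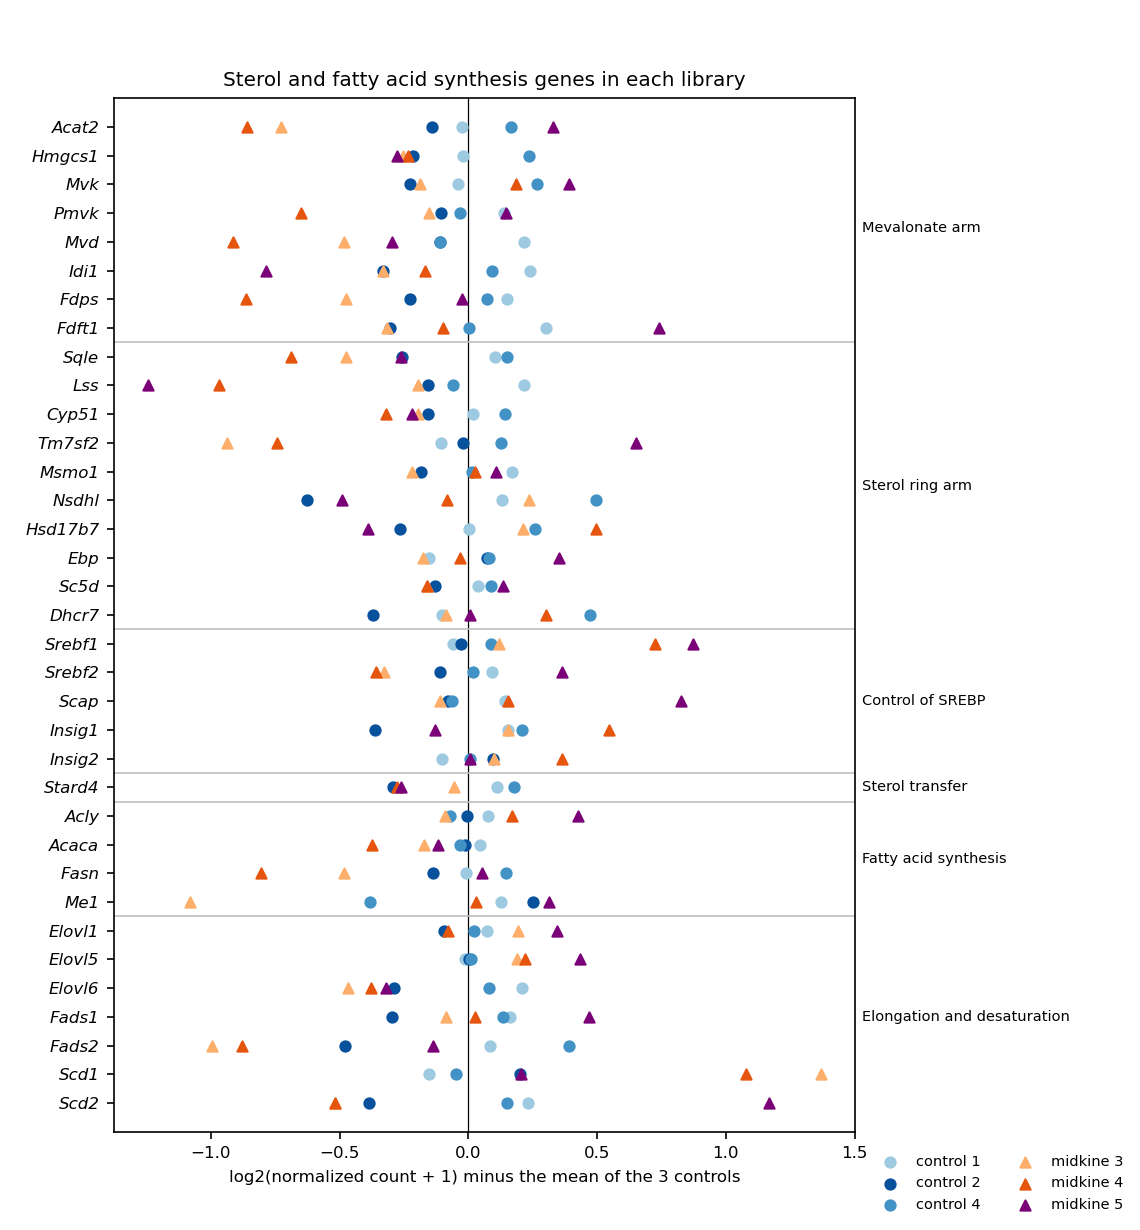
Each row is 1 of the 35 genes, grouped by role, and each symbol is 1 library (circles control, triangles midkine), placed by its log2(normalized count + 1) minus the mean of the 3 controls. Midkine 3 and 4 lie left of every control for 16 genes, while midkine 5 is the highest of all 6 libraries for 16 genes.

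Without midkine 5, 9 members passed (limma, 2 midkine against 3 control libraries), 8 of them lower. They were 25.7% of the members, against 18.4% of all genes. The 8 that fell in these 5 libraries were Acat2, Mvd, Fdps, Sqle, Tm7sf2, Srebf2, Fasn and Scd2, 22.9% of the members against a background of 8.52%. Scd1 rose (2.86%, against 9.92%). edgeR on the same 5 libraries called the same 9, against 18.5% of all genes. Weighting every library by its residual spread (limma with array weights, 0.097 for midkine 5, 0.727 for midkine 3 and 4.36 for midkine 4) called 18 members (51.4%, against 37.5%). Of these 18, 14 were lower and 4 higher (all genes, 18.4% and 19.1%). With these weights the midkine side of the fit rested mostly on 1 library, midkine 4. In midkine 5 itself, 6 of the 9 genes called without it (Acat2, Fdps, Tm7sf2, Srebf2, Fasn and Scd2) lay inside or above the control range. Without midkine 5 the median log2 fold change over members was −0.21, against −0.002 over all genes tested.

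**Figure D2:**
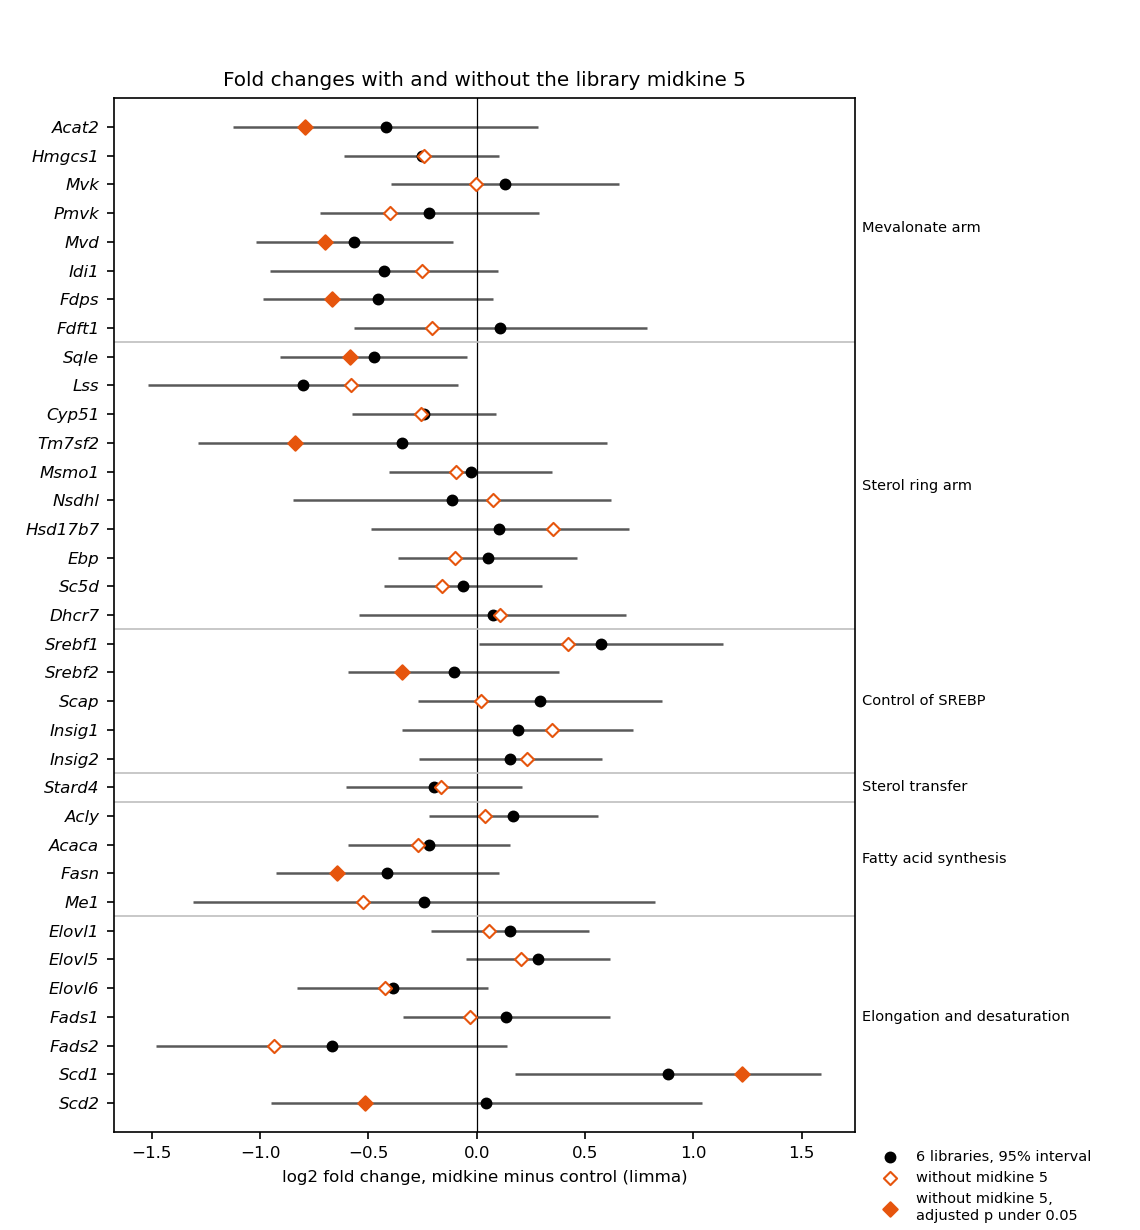
The horizontal axis is the log2 fold change, midkine minus control, for each of the 35 genes. Black points with bars are the fit to 6 libraries with its 95% interval, and diamonds the fit without midkine 5, filled for the 9 genes that passed. Intervals of 30 genes cross 0, and the diamond of Scd2 lies left of 0 while its black point lies near 0.

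In the mevalonate arm, 6 of 8 genes had negative fold changes, with a median of −0.34 (−0.33 without midkine 5). Hmgcs1, the HMG-CoA synthase (chromosome 13, 119690379 to 119708260, plus strand of GRCm38), had 1450.3, 1266 and 1729.9 normalized counts in control 1, 2 and 4 and 1234, 1251 and 1214 in midkine 3, 4 and 5. The midkine values were close to each other and just under control 2, the lowest control. Its log2 fold change was −0.25 ± 0.16 SE (limma, adjusted p = 0.388) and, without midkine 5, −0.24. Mvd, the decarboxylase that makes isopentenyl diphosphate (chromosome 8, 122433601 to 122443422, minus strand), had 693, 553 and 552 normalized counts in control 1, 2 and 4 and 426, 316 and 485 in midkine 3, 4 and 5. Every midkine library lay under every control, and midkine 4 was lowest. Mvd had a log2 fold change of −0.56 ± 0.20 SE (limma, adjusted p = 0.187), with a 95% interval of −1.02 to −0.11, and without midkine 5 it fell by a log2 change of −0.70 ± 0.14 SE (limma, adjusted p = 0.00159).

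Fdps, the farnesyl diphosphate synthase, had 374, 288 and 355 normalized counts in control 1, 2 and 4 and 243, 185 and 331 in midkine 3, 4 and 5. Only midkine 5 lay among the controls, and the other midkine libraries were under them. Fdps had a log2 fold change of −0.45 ± 0.23 SE (limma, adjusted p = 0.315), and without midkine 5 it was −0.67 ± 0.14 SE (limma, adjusted p = 0.00341). Acat2, the cytosolic thiolase that joins acetyl-CoA units at the entry, had 182, 168 and 207 normalized counts in control 1, 2 and 4 and 111, 101 and 232 in midkine 3, 4 and 5. The values of midkine 3 and 4 were lower than each control and that of midkine 5 higher. Over all 6 libraries the log2 fold change of Acat2 was −0.42 ± 0.31 SE (limma, adjusted p = 0.458), and it fell without midkine 5 by 0.79 on the log2 scale (limma, adjusted p = 0.00102). Pmvk, the phosphomevalonate kinase, had 255, 216 and 227 normalized counts in control 1, 2 and 4 and 209, 148 and 257 in midkine 3, 4 and 5. It showed the same arrangement, with midkine 5 marginally above the controls, and passed in neither fit (log2 fold change −0.22 and, without midkine 5, −0.40).

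The other 3 genes of this arm overlapped between the groups. Idi1, the isopentenyl diphosphate isomerase, ranged from 104 in midkine 5 to 213 normalized counts in control 1 (log2 fold change −0.43 and, without midkine 5, −0.25). Mvk, the mevalonate kinase, ranged from 59.3 in control 2 to 91.7 normalized counts in midkine 5 (log2 fold change 0.13 and, without midkine 5, −0.003). Fdft1, the squalene synthase, ranged from 121 in midkine 3 to 252 normalized counts in midkine 5 (log2 fold change 0.11 and, without midkine 5, −0.21). Of these 3, Mvk and Fdft1 were highest and Idi1 lowest in midkine 5. The 8 genes together summed to 3422, 2815 and 3498 normalized counts in control 1, 2 and 4 and 2547, 2380.4 and 2968 in midkine 3, 4 and 5, so that midkine 5 lay inside the control range. The exons of Fdft1 meet those of Ctsb on the opposite strand at the 3′ end, and those of Fdps overlap Gm43738 on the same strand. Acat2 has a close paralogue, Acat3. Strand setting and handling of shared reads being not given in the sources used here, such genes' reads cannot be told apart.

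Promoters are printed for Hmgcs1, the 1 gene with the sterol regulatory element core among the 28 members with a promoter in the table, for Mvd and Lss, which lay lower in every midkine library, and for Elovl5, which lay higher. Each run is the 250 bases before the transcript start, 5′ to 3′ along the gene (RefSeq, GRCm38.p6). They are chr13:119690101-119690350 on the plus strand for Hmgcs1, chr8:122443423-122443672 on the minus strand for Mvd, chr10:76531355-76531604 on the plus strand for Lss and chr9:77917115-77917364 on the plus strand for Elovl5. Capitals mark matches to 3 motifs on either strand: TCACCCCAC (the sterol regulatory element core), CACGTG (the E box) and CCAAT (the NF-Y box, read as ATTGG on the other strand).
Hmgcs1: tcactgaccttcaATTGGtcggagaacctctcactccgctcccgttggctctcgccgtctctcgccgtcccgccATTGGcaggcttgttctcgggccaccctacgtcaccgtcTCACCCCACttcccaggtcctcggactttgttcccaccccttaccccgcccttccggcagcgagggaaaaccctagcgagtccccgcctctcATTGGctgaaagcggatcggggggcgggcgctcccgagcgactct
Mvd: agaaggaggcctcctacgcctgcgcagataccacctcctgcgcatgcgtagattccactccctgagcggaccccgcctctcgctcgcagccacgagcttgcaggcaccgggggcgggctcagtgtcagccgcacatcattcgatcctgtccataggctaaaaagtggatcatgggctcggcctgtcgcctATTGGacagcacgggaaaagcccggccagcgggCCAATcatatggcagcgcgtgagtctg
Lss: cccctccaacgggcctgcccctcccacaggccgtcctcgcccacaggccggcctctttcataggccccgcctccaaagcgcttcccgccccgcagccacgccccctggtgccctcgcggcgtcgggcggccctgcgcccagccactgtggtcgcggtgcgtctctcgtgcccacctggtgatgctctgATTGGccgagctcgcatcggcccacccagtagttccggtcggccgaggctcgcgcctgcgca
Elovl5: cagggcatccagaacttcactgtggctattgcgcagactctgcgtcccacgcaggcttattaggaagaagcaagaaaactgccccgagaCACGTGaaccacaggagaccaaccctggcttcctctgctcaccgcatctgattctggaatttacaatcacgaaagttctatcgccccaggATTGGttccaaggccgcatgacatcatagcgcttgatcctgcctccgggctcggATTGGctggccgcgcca

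In the Hmgcs1 promoter the sterol regulatory element core began 137 bases before the start, between NF-Y boxes at 237, 176 and 45 bases. Mvd held 2 NF-Y boxes, at 60 and 27 bases, and Lss held 1, at 62 bases. Elovl5 held an E box at 161 bases and NF-Y boxes at 71 and 17 bases. Of the 35 members, 28 had a promoter in the RefSeq table, with 38 windows in all, and Fads1, Fdft1, Fdps, Scd1, Scd2, Sqle and Stard4 had none. An NF-Y box occurred in 23 of the 38 member windows (60.5%), against 33.8% of all 32851 windows of this length. At least 2 occurred in 12 of the 38 member windows, against 10.1% of all windows. The E box occurred in 6 member windows (15.8%, against 6.02%), those of Dhcr7, Elovl5, Hsd17b7, Insig1, Sc5d and Scap. The sterol regulatory element core occurred in 1 (2.63%, against 0.496%). The 3 motifs do not contain each other. Shares were not tested, and a match of letters is not a measured binding site. Only exact matches were counted, so a window without a match is not shown to lack a site.

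In the sterol ring arm, 7 of 10 genes had negative fold changes, with a median of −0.09 (−0.13 without midkine 5). The groups did not overlap for 3 of the 10, all lower with midkine, a share to be read against 15.3% of all genes. Sqle, the squalene epoxidase (chromosome 15, 59315077 to 59331192, plus strand), had 288, 224 and 298 normalized counts in control 1, 2 and 4 and 192, 166 and 223 in midkine 3, 4 and 5. The midkine libraries all lay under the controls, although midkine 5 and control 2 differed by less than 1 normalized count. Its log2 fold change was −0.48 ± 0.19 SE (limma, adjusted p = 0.223), and without midkine 5 it was −0.58 ± 0.14 SE (limma, adjusted p = 0.00854). Lss, the lanosterol synthase that closes the rings (chromosome 10, 76531588 to 76557138, plus strand), had 49.2, 37.8 and 40.4 normalized counts in control 1, 2 and 4 and 36.7, 21.1 and 17.2 in midkine 3, 4 and 5. Midkine 3 sat next to the controls, and midkine 4 and 5 were lower. The log2 fold change of Lss, −0.80 ± 0.31 SE (limma, adjusted p = 0.219), was the most negative of the 35 with all 6 libraries and rested on 19 to 48 reads per library. Without midkine 5, its lowest library, the log2 fold change of Lss was −0.58 ± 0.27 SE (limma, adjusted p = 0.141), and 7 members (Fads2, Tm7sf2, Acat2, Mvd, Fdps, Fasn and, almost level, Sqle) were more negative. Cyp51, the lanosterol demethylase, had 841, 745 and 916 normalized counts in control 1, 2 and 4 and 726, 666 and 714 in midkine 3, 4 and 5. Its groups were separate by a small margin, with a log2 fold change of −0.24 ± 0.14 SE (limma, adjusted p = 0.373) and, without midkine 5, −0.26, and its 3′ end meets Akap9 on the opposite strand.

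Tm7sf2, a sterol reductase of the same arm, had 31.8, 33.7 and 37.5 normalized counts in control 1, 2 and 4 and 17.4, 20.1 and 54.5 in midkine 3, 4 and 5. Both midkine 3 and midkine 4 were lower than the controls, and midkine 5 was higher than all of them. Tm7sf2 fell without midkine 5 by 0.84 on the log2 scale (limma, adjusted p = 0.0331), against −0.34 ± 0.41 SE (limma, adjusted p = 0.656) with all 6. Hsd17b7, which acts in removing the methyl groups, had 122, 101 and 146 normalized counts in control 1, 2 and 4 and 141, 172 and 92.6 in midkine 3, 4 and 5. Midkine 4 was highest and midkine 5 lowest of the 6 (log2 fold change 0.10 and, without midkine 5, 0.35). The other 5 genes overlapped between the groups.

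Msmo1, the methylsterol monooxygenase, ranged from 473 in midkine 3 to 619.5 normalized counts in control 1 (log2 fold change −0.03 and, without midkine 5, −0.10). Nsdhl, which acts after it, ranged from 51.1 in control 2 to 112 normalized counts in control 4 (log2 fold change −0.11 and, without midkine 5, 0.08), so the controls alone spanned its midkine values. Ebp, the sterol isomerase, ranged from 348 in midkine 3 to 502 normalized counts in midkine 5 (log2 fold change 0.05 and, without midkine 5, −0.10). Sc5d, the sterol desaturase, ranged from 290.0 in midkine 3 to 356 normalized counts in midkine 5 (log2 fold change −0.06 and, without midkine 5, −0.16), and Dhcr7, the reductase of the last step, ranged from 34.8 in control 2 to 63.1 normalized counts in control 4 (log2 fold change 0.07 and, without midkine 5, 0.11). Control 4 was the highest control for 4 of these 5 genes, all except Msmo1. Summed over the arm, the normalized counts were 2767, 2422 and 2930.1 in control 1, 2 and 4 and 2361, 2412 and 2655 in midkine 3, 4 and 5. Control 2 lay within the range of the midkine sums.

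**Figure D3:**
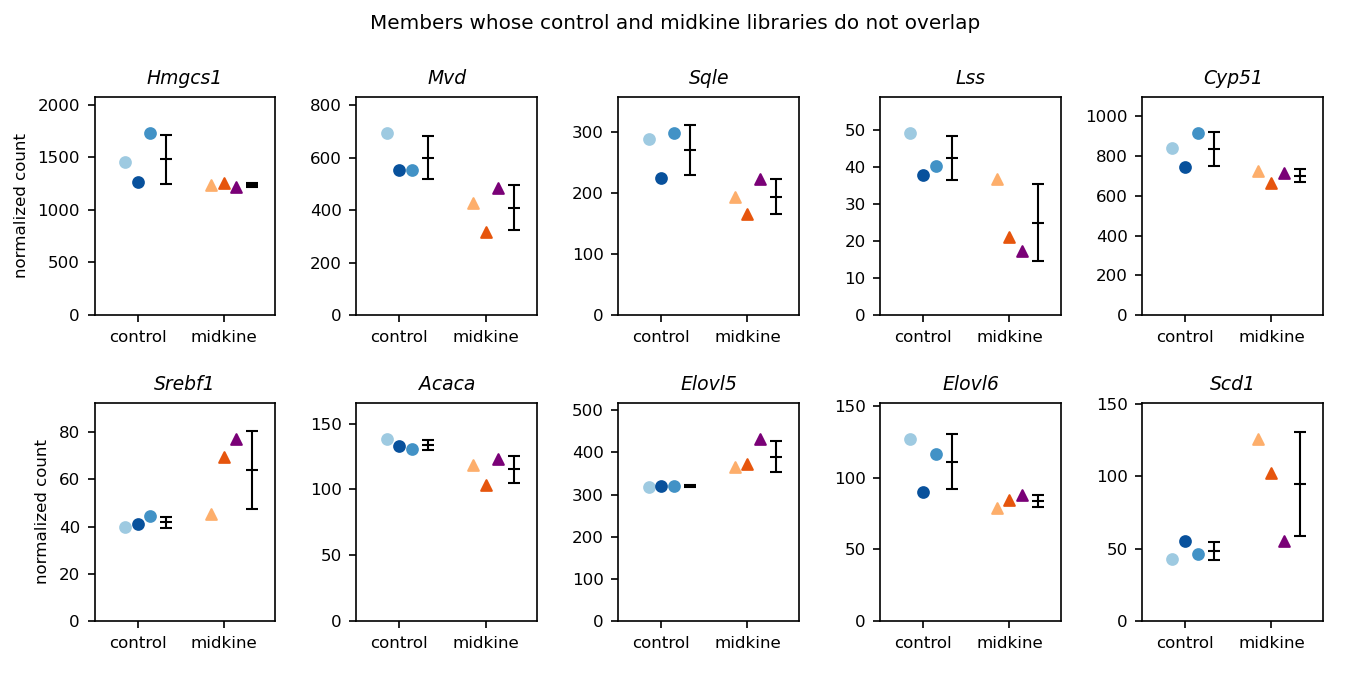
Each panel shows the normalized counts of 1 gene in the 3 control (circles) and 3 midkine (triangles) libraries, with the mean ± SD of each group as a bar beside them, on an axis from 0. Midkine values lie under the controls in 7 panels and above them in Srebf1, Elovl5 and Scd1, where midkine 5 exceeds control 2 by a small margin (55.4 against 55.2).

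Of the 5 genes that control SREBP, 4 had positive fold changes, with a median of 0.19 (0.23 without midkine 5), and 0 passed with all 6 libraries. Srebf1, which encodes the SREBP form linked to fatty acid synthesis (chromosome 11, 60199089 to 60222581, minus strand), had 40.0, 40.9 and 44.4 normalized counts in control 1, 2 and 4 and 45.4, 69.7 and 77.2 in midkine 3, 4 and 5. Each midkine library was above each control, with midkine 3 by about 1 normalized count. Srebf1 had a log2 fold change of 0.57 ± 0.24 SE (limma, adjusted p = 0.247), and 0.42 ± 0.23 SE (limma, adjusted p = 0.214) without midkine 5. Its 3′ end meets Rai1 on the opposite strand. Srebf2, which encodes the SREBP form linked to sterol synthesis, had 877, 762 and 833 normalized counts in control 1, 2 and 4 and 655, 642 and 1058 in midkine 3, 4 and 5. It was lower than the controls in midkine 3 and 4 and higher in midkine 5. Srebf2 had a log2 fold change of −0.11 ± 0.21 SE (limma, adjusted p = 0.792) with all 6 libraries and fell by a log2 change of −0.34 ± 0.10 SE (limma, adjusted p = 0.0270) without midkine 5.

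Insig1, itself an SREBP target that retains Scap, had 256, 179 and 266 normalized counts in control 1, 2 and 4 and 256, 337 and 211 in midkine 3, 4 and 5. Control 2 was lowest and midkine 4 highest, and the groups overlapped (log2 fold change 0.19 and, without midkine 5, 0.35). Insig2, its relative, had 73.8, 84.9 and 79.9 normalized counts in control 1, 2 and 4 and 85.1, 102 and 79.9 in midkine 3, 4 and 5. Midkine 3 exceeded control 2 by less than 1 normalized count, midkine 4 was highest and midkine 5 lay among the controls (log2 fold change 0.16 and, without midkine 5, 0.23). Scap had 166 to 199.5 normalized counts in 5 libraries and 319 in midkine 5 (log2 fold change 0.29 and, without midkine 5, 0.02). Stard4, which moves cholesterol between membranes, averaged 363 ± 60.7 (control) and 314 ± 27.8 (midkine) normalized counts, a log2 fold change of −0.20 ± 0.18 SE (limma, adjusted p = 0.543) and, without midkine 5, −0.17.

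Shares within pairs of related genes are free of the scaling between libraries. Srebf1 made up 4.36, 5.10 and 5.06% in control 1, 2 and 4 and 6.48, 9.79 and 6.79% in midkine 3, 4 and 5 of the reads of Srebf1 and Srebf2. All midkine shares were above all control shares (exact permutation test, two-sided, p = 0.1, and 0.2 adjusted over the 4 pairs), and 0.1 is the smallest p that 3 against 3 libraries allow. The Wilson 95% intervals of control 4 (3.80 to 6.70%) and midkine 3 (4.91 to 8.51%) overlapped. Insig1 made up 77.6, 67.8 and 76.9% in control 1, 2 and 4 and 75.1, 76.7 and 72.5% in midkine 3, 4 and 5 of Insig1 and Insig2, with the groups overlapping (exact permutation test, two-sided, p = 1.0, and 1.0 adjusted over the 4 pairs).

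Of the 4 genes of fatty acid synthesis proper, 3 had negative fold changes (median −0.23, or −0.40 without midkine 5), and midkine 5 was the highest midkine library for all 4. Fasn, the fatty acid synthase, had 809, 740.4 and 901 normalized counts in control 1, 2 and 4 and 582, 466 and 845 in midkine 3, 4 and 5. Again midkine 3 and 4 lay under the controls, and midkine 5 lay within their range. Fasn had a log2 fold change of −0.41 ± 0.22 SE (limma, adjusted p = 0.340), and it was −0.65 ± 0.12 SE (limma, adjusted p = 0.00105) without midkine 5. Acaca, the acetyl-CoA carboxylase that commits carbon to this route, had 138, 133 and 131 normalized counts in control 1, 2 and 4 and 119, 103 and 123 in midkine 3, 4 and 5. Its groups did not overlap, at a log2 fold change of −0.22 ± 0.16 SE (limma, adjusted p = 0.461) and, without midkine 5, −0.27. Acly, which makes cytosolic acetyl-CoA from citrate, averaged 459 ± 23.7 (control) and 522 ± 93.2 (midkine) normalized counts (log2 fold change 0.17 and, without midkine 5, 0.04), with its highest value in midkine 5. Me1, the malic enzyme that supplies NADPH, was near the lower limit of the table with 4 to 13 reads per library, and no difference was detectable at this depth (log2 fold change −0.24 and, without midkine 5, −0.53).

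Among the 7 elongases and desaturases, 5 had positive fold changes (median 0.14). Without midkine 5 the median was −0.03, and Fads1 and Scd2 were negative too. Scd1, a stearoyl-CoA desaturase (chromosome 19, 44394455 to 44407879, minus strand), had 43.1, 55.2 and 46.4 normalized counts in control 1, 2 and 4 and 126, 102 and 55.4 in midkine 3, 4 and 5. The values of midkine 3 and 4 were more than 1.5-fold above the highest control, while midkine 5 was almost level with control 2. Scd1 had a log2 fold change of 0.88 ± 0.31 SE (limma, adjusted p = 0.186), and it rose without midkine 5 by a log2 change of 1.23 ± 0.19 SE (limma, adjusted p = 0.000324). Scd2, the related desaturase, had 574, 374 and 542 normalized counts in control 1, 2 and 4 and 341, 341 and 1097 in midkine 3, 4 and 5. Here midkine 3 and 4 were lowest and midkine 5 was highest of all. Its log2 fold change was 0.04 ± 0.43 SE (limma, adjusted p = 0.962) with all 6 libraries and −0.52 ± 0.15 SE (limma, adjusted p = 0.0207) without midkine 5. Scd1 made up 6.98, 12.9 and 7.87% in control 1, 2 and 4 and 26.9, 23.1 and 4.80% in midkine 3, 4 and 5 of the reads of the pair, which did not separate the groups (exact permutation test, two-sided, p = 0.4, and 0.533 adjusted over the 4 pairs).

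Elovl5, an elongase of polyunsaturated fatty acids, had 317, 320.1 and 322 normalized counts in control 1, 2 and 4 and 364, 373 and 432 in midkine 3, 4 and 5. The controls were nearly equal and all midkine libraries lay above them. The log2 fold change of Elovl5 was 0.28 ± 0.14 SE (limma, adjusted p = 0.318) and, without midkine 5, 0.20. Elovl6, which lengthens palmitate, had 127, 90.0 and 116 normalized counts in control 1, 2 and 4 and 79.3, 84.4 and 88.0 in midkine 3, 4 and 5. The midkine values were all lower, with midkine 5 next to control 2, and the log2 fold change was −0.39 ± 0.19 SE (limma, adjusted p = 0.304) and, without midkine 5, −0.42. Elovl1, an elongase of very long chains, averaged 569.9 ± 33.8 (control) and 638 ± 92.3 (midkine) normalized counts (log2 fold change 0.15 and, without midkine 5, 0.06), and its 3′ end meets Cdc20 on the opposite strand. Fads2, a desaturase of polyunsaturated fatty acids, had 27.7, 18.4 and 34.5 normalized counts in control 1, 2 and 4 and 12.6, 13.7 and 23.6 in midkine 3, 4 and 5. Among midkine libraries 3 and 4 were lower than each control, midkine 5 was not, and the log2 fold change was −0.67 ± 0.35 SE (limma, adjusted p = 0.326) and, without midkine 5, −0.94. Fads1, which acts beside it, had 304, 221 and 298 normalized counts in control 1, 2 and 4 and 255, 277 and 376 in midkine 3, 4 and 5. Midkine 5 was highest and control 2 lowest (log2 fold change 0.14 and, without midkine 5, −0.03). The share of Fads1 in the reads of the pair was 91.6, 92.3 and 89.6% in control 1, 2 and 4 and 95.3, 95.3 and 94.1% in midkine 3, 4 and 5, higher in each midkine than in each control library (exact permutation test, two-sided, p = 0.1, and 0.2 adjusted over the 4 pairs), and the Wilson 95% intervals of control 2 (88.2 to 95.1%) and midkine 5 (91.5 to 95.9%) overlapped.

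Many members shared the order of libraries within a group. Control 2 was the lowest control for 25 of 35 members (71.4%, against 36.0% of all genes), among them 15 of the 18 genes of both sterol arms. Its median over the members was −0.15 against the control mean, close to −0.19 in midkine 3 and −0.16 in midkine 4. In midkine 5 the median was 0.11, and the library was highest of the 6 for 16 members (45.7%, against 34.6%) and lowest for 4 (11.4%, against 33.7%), namely Hmgcs1, Idi1, Lss and Hsd17b7. Within the sterol arms midkine 5 held the highest value of Acat2, Mvk, Pmvk, Fdft1, Tm7sf2, Ebp and Sc5d. For 6 members (Acat2, Pmvk, Tm7sf2, Sc5d, Srebf2 and Scd2) midkine 3 and 4 lay under every control and midkine 5 above every control. Midkine 5 also had the highest summed monocyte and macrophage markers (96075) and neutrophil markers (187812). It had the lowest summed markers of dividing cells (8928) and of conventional dendritic cells (7119.8, against at least 11803 in the other 5 libraries), and their part in this pattern was not tested.

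**Figure D4:**
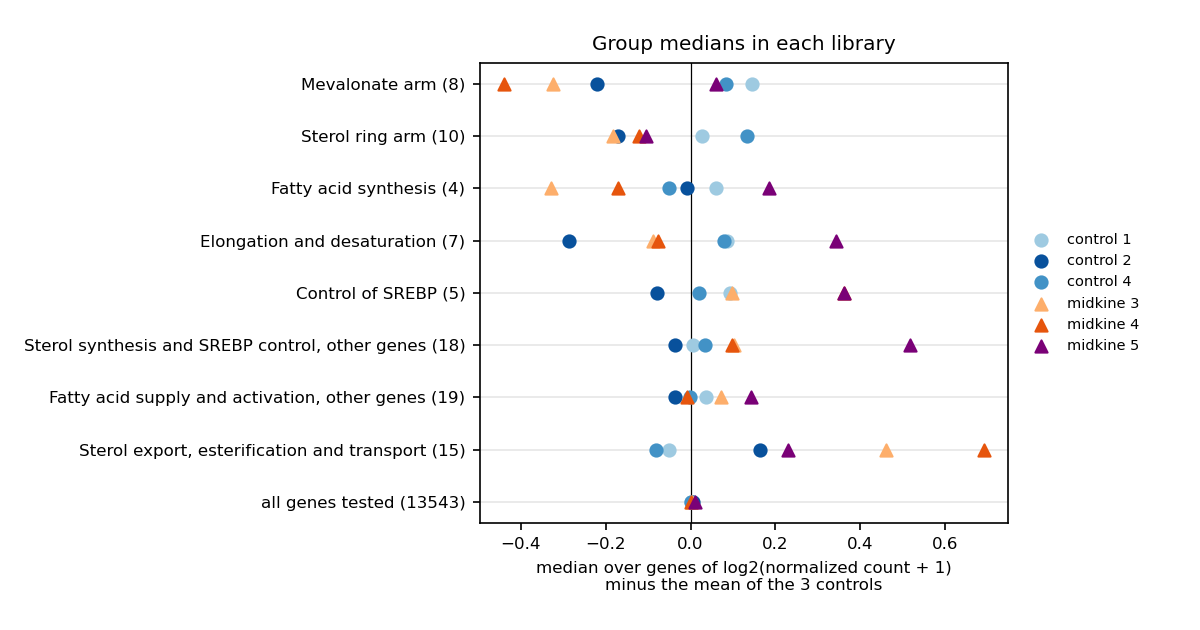
Rows are the member groups, 3 lists of other pathway genes and all genes tested, with the number of genes in brackets, and symbols are the 6 libraries at the median of log2(normalized count + 1) minus the control mean. The mevalonate arm lies at −0.32 and −0.44 in midkine 3 and 4 and at −0.22 in control 2. The sterol export list lies above 0.4 in midkine 3 and 4.

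Genes that act beside the members were taken from 3 lists. The list of other sterol synthesis and SREBP genes (18 of 18 tested) had a median log2 fold change of 0.17, or 0.11 without midkine 5, with 0 passing in 6 libraries (limma). At an unadjusted p under 0.05, 4 were higher and 1 lower (all genes, 10.4% and 9.3%), and 7 lay above and 2 below the controls without overlap (all genes, 15.5% and 15.3%). Without midkine 5, 3 rose and 1 fell (limma; all genes, 9.92% and 8.52%). Por, the reductase that feeds electrons to Cyp51 and Sqle, had 768, 914 and 749.5 normalized counts in control 1, 2 and 4 and 1243, 1415 and 1212 in midkine 3, 4 and 5. The midkine libraries were all higher, at a log2 fold change of 0.67 ± 0.15 SE (limma, adjusted p = 0.0899) and, without midkine 5, 0.71 (limma, adjusted p = 0.000284). Nus1, a subunit of the enzyme that starts dolichol from farnesyl diphosphate, averaged 355 ± 31.1 (control) and 599 ± 96.6 (midkine) normalized counts, a log2 fold change of 0.74 ± 0.17 SE (limma, adjusted p = 0.0938) and, without midkine 5, 0.68 (limma, adjusted p = 0.00144). Ggps1, which makes geranylgeranyl diphosphate from the same precursor, was lower in each midkine library, averaging 254 ± 21.5 (control) and 165 ± 51.2 (midkine) normalized counts at a log2 fold change of −0.67 ± 0.25 SE (limma, adjusted p = 0.207) and, without midkine 5, −0.39 (limma, adjusted p = 0.0465). Mbtps2, a protease that cuts SREBP, averaged 99.5 ± 6.28 (control) and 138 ± 19.5 (midkine) normalized counts at a log2 fold change of 0.46 ± 0.18 SE (limma, adjusted p = 0.217) and, without midkine 5, 0.44 (limma, adjusted p = 0.0740).

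The list of other fatty acid genes had 20 of 26 genes in the table and 19 tested, with a median of 0.03 and 0 passing (limma). At an unadjusted p under 0.05, 2 of 19 were higher and 0 lower, and 3 lay above and 0 below the controls without overlap, so the higher counts were near the shares of all genes (10.4% and 15.5%). Without midkine 5, 2 rose and 2 fell (limma; all genes, 9.92% and 8.52%), near the shares of all genes. Idh1, a cytosolic source of NADPH, had 562, 585 and 452 normalized counts in control 1, 2 and 4 and 867, 1231 and 1423 in midkine 3, 4 and 5. Its midkine values were all higher, at a log2 fold change of 1.12 ± 0.21 SE (limma, adjusted p = 0.0788) and, without midkine 5, 0.96 (limma, adjusted p = 0.000166). Hacd4, of the dehydratases that act in elongation, averaged 756 ± 118 (control) and 1049.7 ± 101 (midkine) normalized counts at a log2 fold change of 0.48 ± 0.17 SE (limma, adjusted p = 0.186) and, without midkine 5, 0.56 (limma, adjusted p = 0.00319). Tecr, the reductase that ends each cycle, averaged 587 ± 47.0 (control) and 432 ± 129 (midkine) normalized counts at a log2 fold change of −0.48 ± 0.23 SE (limma, adjusted p = 0.289) and, without midkine 5, −0.23 (limma, adjusted p = 0.183). Oxsm, of mitochondrial fatty acid synthesis, averaged 44.4 ± 8.43 (control) and 60.7 ± 5.81 (midkine) normalized counts at a log2 fold change of 0.46 ± 0.22 SE (limma, adjusted p = 0.297) and, without midkine 5, 0.38 (limma, adjusted p = 0.251).

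Genes of sterol export, esterification and transport lay mostly higher with midkine. Of 16 listed genes, 15 were tested, 14 had positive fold changes and the median was 0.51, although 0 passed with all 6 libraries (limma). At an unadjusted p under 0.05, 7 were higher and 0 lower (all genes, 10.4% and 9.3%). Without overlap, 7 lay above and 1 below the controls (all genes, 15.5% and 15.3%). Leaving out midkine 5, 9 of 15 rose and 0 fell (limma; all genes, 9.92% and 8.52%). Npc1, which releases cholesterol from lysosomes, had 586, 694 and 567 normalized counts in control 1, 2 and 4 and 915, 1149.6 and 834 in midkine 3, 4 and 5. It was higher in each midkine library, at a log2 fold change of 0.64 ± 0.17 SE (limma, adjusted p = 0.125) and, without midkine 5, 0.74 (limma, adjusted p = 0.000425). Nr1h3 and Nr1h2 encode the LXR receptors. Nr1h3 averaged 264 ± 29.9 (control) and 472 ± 136 (midkine) normalized counts at a log2 fold change of 0.80 ± 0.22 SE (limma, adjusted p = 0.131) and, without midkine 5, 0.58 (limma, adjusted p = 0.00411). Nr1h2 averaged 109 ± 7.69 (control) and 156 ± 15.7 (midkine) normalized counts at a log2 fold change of 0.51 ± 0.17 SE (limma, adjusted p = 0.173) and, without midkine 5, 0.59 (limma, adjusted p = 0.00946). Lipa, the lysosomal acid lipase, averaged 2023 ± 214 (control) and 3385 ± 819.7 (midkine) normalized counts at a log2 fold change of 0.72 ± 0.21 SE (limma, adjusted p = 0.139) and, without midkine 5, 0.93 (limma, adjusted p = 3.44e-05). All 4 of these genes rose in the 5 libraries without midkine 5. They were named for the smallest p in the fit that holds the same libraries, so this is no separate support. The summed list was 27628 and 28959 normalized counts in midkine 3 and 4 and 19082 in midkine 5, against 19565 to 21516 in the controls. Npc2 alone made up most of each sum, with 13367.5, 13181 and 12448 normalized counts in control 1, 2 and 4. It had 15769, 15101 and 10924 in midkine 3, 4 and 5, and so weighs on the low sum of midkine 5. Over the list, the median log2 distance from the control mean was 0.23 in midkine 5, against −0.08 to 0.16 in the controls. The same libraries, midkine 3 and 4, had the highest sums of this list and the lowest sums of both sterol arms together (4908 and 4792, against 5237 to 6428 in the controls). Summed monocyte and macrophage markers were also higher in each midkine library. They were highest in midkine 5 (96075), where the median of the export list was the lowest of the midkine libraries. Their part in this list was not tested.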

How the data were processed

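RNA from 6 libraries (3 control, 3 midkine) was sequenced with QuantSeq 3′ libraries per the labels' protocols. They yield about 1 fragment per transcript, so no scaling to length was applied. The deposited values are a signal: gene counts divided by a size factor per library by the authors. The submitters' processing notes list DESeq2, HTSeq, SAMtools 0.1.19, TopHat2 2.0.10, FastQC 0.11.0 and Bowtie 1.0.0, with GRCm38 (mm10). The annotation, strand setting and gene filter were each not given in the sources used here. Dividing by the smallest step returned whole reads for 100% of values (tolerance 0.01 reads). Size factors ranged from 0.947 to 1.10. A floor of 3 reads was at most 5.01e-05% of a library, and intervals and floors cover counting error only. The table held 0 other per-sample columns.

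limma 3.58.1 (R 4.3.3, eBayes with trend) was fitted to log2(normalized count + 1) over 13543 genes with a mean of at least 5, a filter that all 35 members passed. Tests were two-sided. Alternatives changed the pseudocount, filter, scaling, moderation, weights and libraries, or tested whole reads with edgeR 4.0.16 (TMM, 10 genes called) and DESeq2 1.42.0 (684 called). Shares within gene pairs used exact permutation over libraries (scipy 1.17.1). Coordinates and exon overlaps came from GENCODE M21 on GRCm38, and promoters from RefSeq. Every value per library was given for members with an unadjusted p under 0.05, no overlap, a call in any alternative, one of the 2 largest changes in either direction, or a place in a pair. In each further list up to 4 genes of smallest p were named, and Npc2 for its weight in a sum. The members and lists were chosen with earlier results of these data known.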

Additional observations from a re-analysis of the deposited data

How the results depend on the processing

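Under the 10 settings that leave out no library, 325 of 349 member fold changes kept their direction and side of the threshold. Array weights, from 0.097 for midkine 5 to 4.36 for midkine 4, called 18 members and 5076 genes. The other 9 called 0 members, and over all genes they called 0 except pseudocount 5 (10), no filter (9), quantile normalization (16), edgeR (10) and DESeq2 (684). Leaving out 1 library at a time, limma called 0 to 9 members and 0 to 2497 genes, the upper values without midkine 5, where edgeR called 9 and 2508. Members without overlap numbered 8 to 10 under other scalings and filters and 10 to 20 with 1 library left out, 20 being without midkine 5, where 47.6% of all genes did not overlap. The members' median ranged from −0.21 (limma, without midkine 5) to 0.003 (without midkine 3) with 1 library left out, and was −0.22 with edgeR without midkine 5. Fold changes that changed sign were small in both fits except Scd2: quantile normalization gave Ebp −0.003 and Scd2 −0.034, array weights gave Fdft1 −0.20, Ebp −0.008, Elovl1 −0.053, Fads1 −0.033 and Scd2 −0.56, and edgeR without midkine 5 gave Mvk −0.004, Fdft1 −0.22, Nsdhl 0.022, Ebp −0.098, Fads1 −0.038 and Scd2 −0.54. With 1 library left out, ranges that crossed 0 were Mvk −0.003 to 0.29, Fdft1 −0.21 to 0.32, Msmo1 −0.12 to 0.068, Nsdhl −0.43 to 0.13, Hsd17b7 −0.09 to 0.35, Ebp −0.10 to 0.16, Dhcr7 −0.11 to 0.31, Srebf2 −0.34 to 0.018, Me1 −0.53 to 0.17, Fads1 −0.03 to 0.25 and Scd2 −0.52 to 0.33. The change in the Insig1 share (0.62 percentage points) ranged from −2.53 to 2.37. The cause of these shifts was not tested. No paired analysis was possible because the groups share only replicate number 4. Genes with few reads, above all Me1, are limited by depth.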
